A study of Mus musculus with 11 samples.

Results

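Genes whose damaging variants raise the risk of autism and other neurodevelopmental disorders were followed in the cortex of mouse embryos that had lost Chd8, itself one of the best established of these genes. The set held 43 genes, each found by its symbol in the gene column of the expression table, out of 24138 loci in the table. All 43 had a single locus, and all 43 reached the mean of 1 FPKM over the libraries that was asked of a locus before testing, as did 12672 loci in all. FPKM counts fragments per kilobase of transcript, scaled to the size of the library, so levels of different genes are compared here per length.

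The conditional knockout (cKO) animals, with 2 libraries, were Chd8 c/c, Emx1-cre by their labels. The controls, with 3 libraries, had floxed Chd8 and no Cre, and among them replicate 1 was heterozygous (c/+) while replicates 2 and 3 had both alleles floxed (c/c). All 5 libraries came from cortex at stage E14.5, and whether a library held 1 embryo or a pool is not given in the sources used here, so the spread between libraries may be partly technical. Emx1-cre acts in the progenitors of the dorsal telencephalon and their progeny, so interneurons, microglia and vessels in the same tissue keep Chd8. A protocol field of the expression samples names Eed in place of Chd8, while titles and genotypes name Chd8.

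Risk genes of this kind fall broadly into regulators of chromatin and transcription, which act in dividing progenitors and young neurons, and genes of the synapse, of cell adhesion and of the cytoskeleton, whose RNA builds up as neurons mature. CHD8 is a remodelling enzyme that is known to occupy promoters of active genes, among them promoters of other risk genes. The comparison therefore asks whether the RNA of other risk genes differs when CHD8 is lost in the embryonic cortex, and whether regulators of chromatin differ from synaptic genes in this. By role, 23 members were assigned to chromatin and transcription, 10 to synapse, adhesion and cytoskeleton, 6 to protein modification, turnover and signalling, and 4 to RNA and translation.

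Chd8 RNA was 19.3 and 15.1 FPKM in the cKO libraries, against 31.5, 30.02 and 31.8 FPKM in the controls. Both cKO libraries lay below every control, and the cKO mean was 55.2% of the control mean, a level at which RNA from cells outside the Emx1 lineage and RNA still made from the deleted allele cannot be told apart. The exact two-sided permutation test of these values gave p = 0.1, the smallest that 2 against 3 libraries allow. In bulk tissue, fewer cells of a type and less RNA per cell cannot be told apart, and this holds for every value below. Summed FPKM per library ran between 418191 and 484296, and Pearson correlations between libraries across loci between 0.880 and 0.933.

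Most risk genes lay close to their control level. The log2 change, which here is cKO minus control on log2(FPKM + 1), was within 0.25 of 0 for 28 of the 43 members (65.1%), against 59.5% of all loci tested. Of the members, 18 had a positive and 25 a negative change, where 46.9% of all loci were positive and 53.1% negative, with a median of -0.04, beside a median of -0.02 over all loci. No member passed limma's test at an adjusted p of 0.05 over all loci (the lowest adjusted p of a member was 0.575), and 0.0473% of all loci did, of which 0.0158% were higher and 0.0316% lower. The loci that passed were loci of small RNAs, each at 0 FPKM in every library of 1 group. Chd8 itself did not pass (log2 change -0.83, unadjusted p = 0.00172 and adjusted p = 0.575 in limma). A missing call is therefore not evidence that a gene was unchanged. At an unadjusted p under 0.05 there were 4 members (Ankrd11, Tbl1xr1, Dyrk1a and Gigyf1), or 9.30%, against 7.45% of all loci (3.08% higher and 4.37% lower). Of the members, 4 were called significant in the authors' deposited table, all lower (Gigyf1, Dscam, Ankrd11 and Auts2), where 3.09% of all loci were called lower and 1.22% higher.

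The libraries of the groups did not overlap in 11 members, or 25.6%, where 29.0% of all loci showed this. Both cKO libraries lay above every control for Tbl1xr1, Cntnap2, Dyrk1a, Cul3 and Ddx3x, and 13.4% of all loci did so. Both lay below every control for Phf12, Ankrd11, Setd5, Katnal2, Gigyf1 and Upf3b, as did 15.6% of all loci. Those shares are near the background, so separation of the libraries was no more common among risk genes than among loci in general. When libraries were rescaled by a median of ratios or by the upper quartile, all 5 higher members stayed apart, Setd5 and Upf3b no longer did, and Ehmt1 (by both scalings) and Naa15 (by the upper quartile) came to lie above every control. With fewer libraries fewer values have to lie apart, and leaving out cKO replicate 1 gave 9 higher and 21 lower members, and leaving out cKO replicate 2 gave 11 and 7. Leaving out a control gave 14 higher and 8 lower members for replicate 1, 6 and 10 for replicate 2, and 6 and 9 for replicate 3. The share over all loci was not computed with a library left out, so these counts show nothing particular to risk genes.

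**Figure D1:**
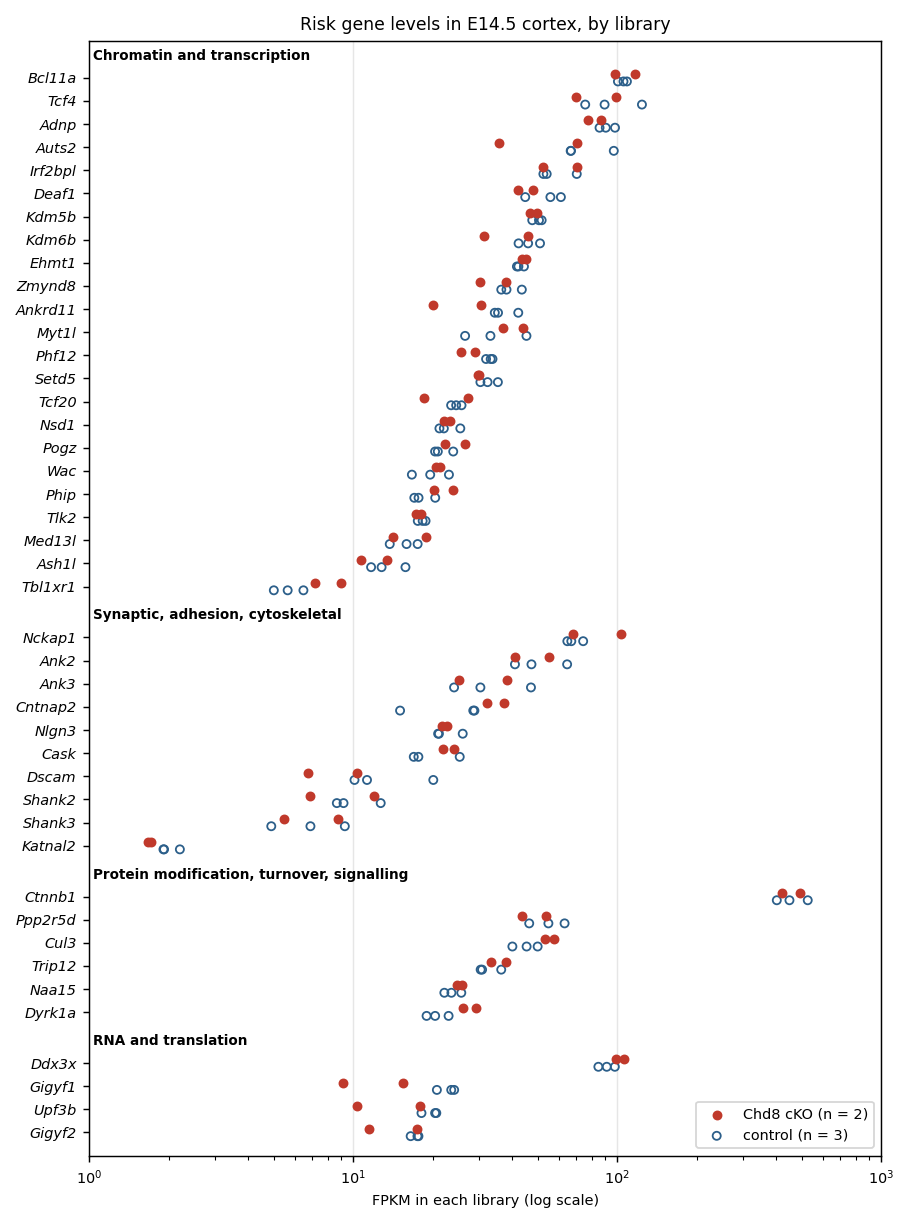
FPKM of the 43 risk genes (rows, grouped by role and ordered by control mean) in each library on a log axis, with filled points for the 2 cKO libraries and open points for the 3 controls. Levels ran from Katnal2, at 1.67 to 2.20 FPKM, to Ctnnb1, at 403 to 527 FPKM, and in 32 of the 43 genes the points of the groups overlapped.

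The risk genes were more abundant than most loci. Their median level over the 5 libraries was 30.6 FPKM, against 13.2 FPKM for all loci tested, which placed the median member at the percentile 75.8 of the tested loci. Their genes were also long, with a median span of 109 kb, against 24.99 kb for tested loci with a protein-coding entry in the RefSeq annotation. The span differed by role, at 389 kb for the synaptic class, 115 kb for the chromatin class, 67.9 kb for protein modification and 18.2 kb for the class of RNA and translation.

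Among the regulators of RNA and translation, 3 of 4 members had lower means in the cKO. Gigyf1, on chromosome 5 (137510263 to 137527935 in GRCm38), encodes a GYF domain protein that works with an mRNA cap-binding repressor of translation. Gigyf1 RNA was 15.5 and 9.16 FPKM in the cKO libraries, against 24.1, 23.5 and 20.7 FPKM in the controls. Every cKO library lay below every control, and the cKO mean was 54.1% of the control mean, a ratio close to that of Chd8 itself. Its log2 change of -0.88 (SE 0.23) was the largest of the 43 in size and had the lowest unadjusted p of the members in limma (0.0105, adjusted p = 0.575). The authors' deposited table gave Gigyf1 a log2 fold change of -0.89 with a q-value of 0.00331. Leaving out cKO replicate 1 gave a change of -1.22 and leaving out cKO replicate 2 one of -0.53, so cKO replicate 2 was the library farther from the controls.

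Gigyf2, the paralog with the same function in translational repression, was 17.5 and 11.5 FPKM in the cKO libraries, against 16.5, 17.7 and 17.5 FPKM in the controls. Here cKO replicate 1 lay among the controls and only cKO replicate 2 below them (log2 change -0.26, SE 0.19). The ratio of Gigyf1 to Gigyf2 within a library was 0.884 and 0.800 in the cKO, against 1.46, 1.33 and 1.18 in the controls. Gigyf1 was thus the lower of the pair in both cKO libraries and the higher in all 3 controls. The difference in log2 ratio was -0.65 (exact two-sided permutation p = 0.1, the smallest possible, and 0.3 when adjusted over the 3 pairs of related members compared). The ratio does not depend on how libraries are scaled.

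**Figure D2:**
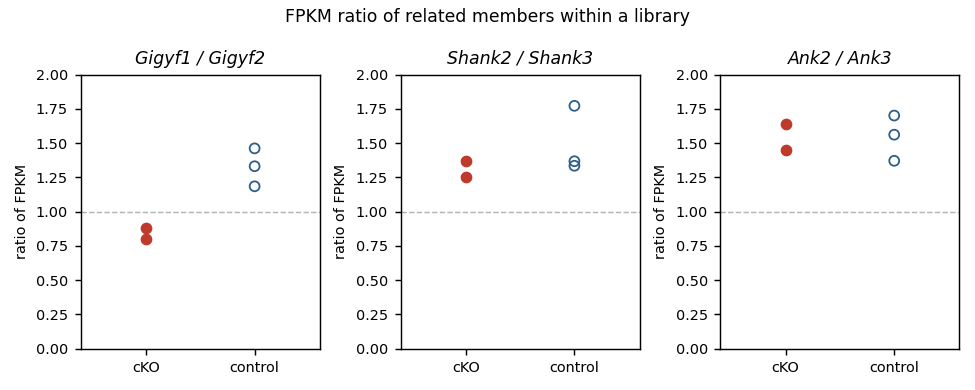
Ratio of FPKM between related members in each library, for Gigyf1 over Gigyf2, Shank2 over Shank3 and Ank2 over Ank3, with filled points for the 2 cKO libraries, open points for the 3 controls and a dashed line at equal levels. The Gigyf1 to Gigyf2 ratio was 0.800 and 0.884 in the cKO, against 1.18 to 1.46 in the controls, while the other pairs overlapped between groups.

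Upf3b, an X-linked component of nonsense-mediated decay, the pathway that removes transcripts with early stop codons, was 17.8 and 10.3 FPKM in the cKO libraries, against 20.4, 18.1 and 20.6 FPKM in the controls. The higher cKO value, from replicate 1, was close to the lowest control, and most of the difference came from cKO replicate 2. The log2 change of -0.50 (SE 0.24, adjusted p = 0.575) was -0.14 without that library. Ddx3x, an RNA helicase that aids translation initiation, was 99.2 and 106 FPKM in the cKO libraries, against 98.0, 91.3 and 84.9 FPKM in the controls. The groups did not overlap, but cKO replicate 1 and control replicate 1 were nearly equal (log2 change 0.17, SE 0.14, adjusted p = 0.655).

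Ddx3x is known to escape X inactivation, and Xist, the RNA of the inactive X chromosome, was 72.3 FPKM in cKO replicate 1 and 0.0378 FPKM in cKO replicate 2, against 86.3, 67.4 and 0.0585 FPKM in the controls. The Y-linked gene Ddx3y was 0.00910 and 11.2 FPKM in the cKO libraries and 0, 0.00535 and 8.82 FPKM in the controls. Each group thus held libraries of both patterns, in unequal shares. Among libraries with high Xist, Ddx3x was 99.2 FPKM in the cKO, against 98.0 and 91.3 FPKM in controls, and among libraries with Ddx3y it was 106 FPKM in the cKO, against 84.9 FPKM in the control. Each of these sets a single cKO library against the controls, and the part of the patterns in the Ddx3x difference was not tested.

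Among the chromatin and transcription genes, 9 had a positive and 14 a negative change, with a median of -0.05, and the direction of that median turned with the libraries used and with their scaling. Leaving out cKO replicate 1 gave -0.14, leaving out cKO replicate 2 gave 0.03, and upper quartile scaling gave 0.00069. The median over all loci moved as well, to -0.049, -0.0016 and 0.020 in these settings, so the turn by scaling was not particular to this class. In 19 of the 23 genes cKO replicate 2 lay below cKO replicate 1, and over all loci 54.6% did.

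Ankrd11, on chromosome 8 (122883321 to 123042284), encodes a nuclear co-regulator that recruits histone deacetylases and is the gene of KBG syndrome. Its RNA was 30.4 and 19.99 FPKM in the cKO libraries, against 35.4, 42.2 and 34.4 FPKM in the controls. Both cKO libraries lay below every control, with a log2 change of -0.57 (SE 0.21, unadjusted p = 0.0402 and adjusted p = 0.575 in limma). The authors' deposited table gave Ankrd11 a log2 fold change of -0.57 and a q-value of 0.0275. The change was -0.28 without cKO replicate 2.

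Phf12, a zinc finger subunit of a Sin3 histone deacetylase complex, was 28.9 and 25.6 FPKM in the cKO libraries, against 33.2, 33.7 and 31.9 FPKM in the controls. Its controls differed from each other less than those of any other member, with a coefficient of variation of 2.87%, and the cKO mean was 82.8% of theirs. The log2 change was -0.27 (SE 0.12, adjusted p = 0.575). Setd5, a SET domain protein, was 29.8 and 29.97 FPKM in the cKO, against 32.3, 35.3 and 30.3 FPKM in the controls, so the gap to the nearest control was under 1 FPKM.

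Tbl1xr1, a subunit of the NCoR corepressor complex, lay on the other side of its controls. It was 8.96 and 7.15 FPKM in the cKO libraries, against 6.47, 5.64 and 5.001 FPKM in the controls, all of which were lower. The log2 change was 0.43 (SE 0.17, unadjusted p = 0.0474 and adjusted p = 0.575 in limma), and Tbl1xr1 was the least abundant of the chromatin class.

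Auts2, which associates with a Polycomb complex and is linked to syndromic intellectual disability, was 70.3 and 35.7 FPKM in the cKO libraries, against 66.8, 97.1 and 66.7 FPKM in the controls. cKO replicate 1 lay among the controls, and only cKO replicate 2 was below them. The authors' deposited table called Auts2 lower (log2 fold change -0.54, q-value 0.0443). On the log2(FPKM + 1) scale its change was -0.58 (SE 0.33, adjusted p = 0.577), and -0.10 without cKO replicate 2. Control replicate 2, the highest library for Auts2, was also the highest for the summed markers of intermediate progenitors, whose part in the Auts2 difference was not tested.

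Phip, a bromodomain protein, was 20.2 and 23.95 FPKM in the cKO, against 20.4, 17.04 and 17.7 FPKM in the controls. Deaf1, a DNA-binding transcription factor, was 47.8 and 41.9 FPKM in the cKO, against 61.2, 44.8 and 55.9 FPKM in the controls. Both genes overlapped between the groups, through 1 library each. The histone demethylase gene Kdm5b was nearly level, at 46.8 and 49.7 FPKM in the cKO, against 51.8, 50.6 and 47.7 FPKM in the controls. Kdm6b, a demethylase that opposes Polycomb repression, was 45.8 and 31.3 FPKM in the cKO, against 45.98, 51.02 and 42.3 FPKM in the controls, so only cKO replicate 2 left the control range.

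Bcl11a, a zinc finger repressor of projection neurons, was the most abundant of the class, at 117 and 98.2 FPKM in the cKO, against 101, 109 and 106 FPKM in the controls. The cKO libraries lay on either side of the controls (log2 change 0.03, SE 0.14). The other 13 members of the class were Adnp, Pogz, Ash1l, Myt1l, Tcf4, Tcf20, Tlk2, Wac, Nsd1, Ehmt1, Med13l, Irf2bpl and Zmynd8. Their control means ran from 13.4 to 96.5 FPKM, their log2 changes from -0.20 to 0.23, with 7 below and 6 above 0, and all 13 overlapped between the groups. Adnp, the zinc finger gene of Helsmoortel-Van der Aa syndrome, shares its locus in the table with Dpm1, so its 86.6 and 77.7 FPKM in the cKO, against 98.1, 85.7 and 90.5 FPKM in the controls, cannot be assigned to Adnp alone.

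**Figure D3:**
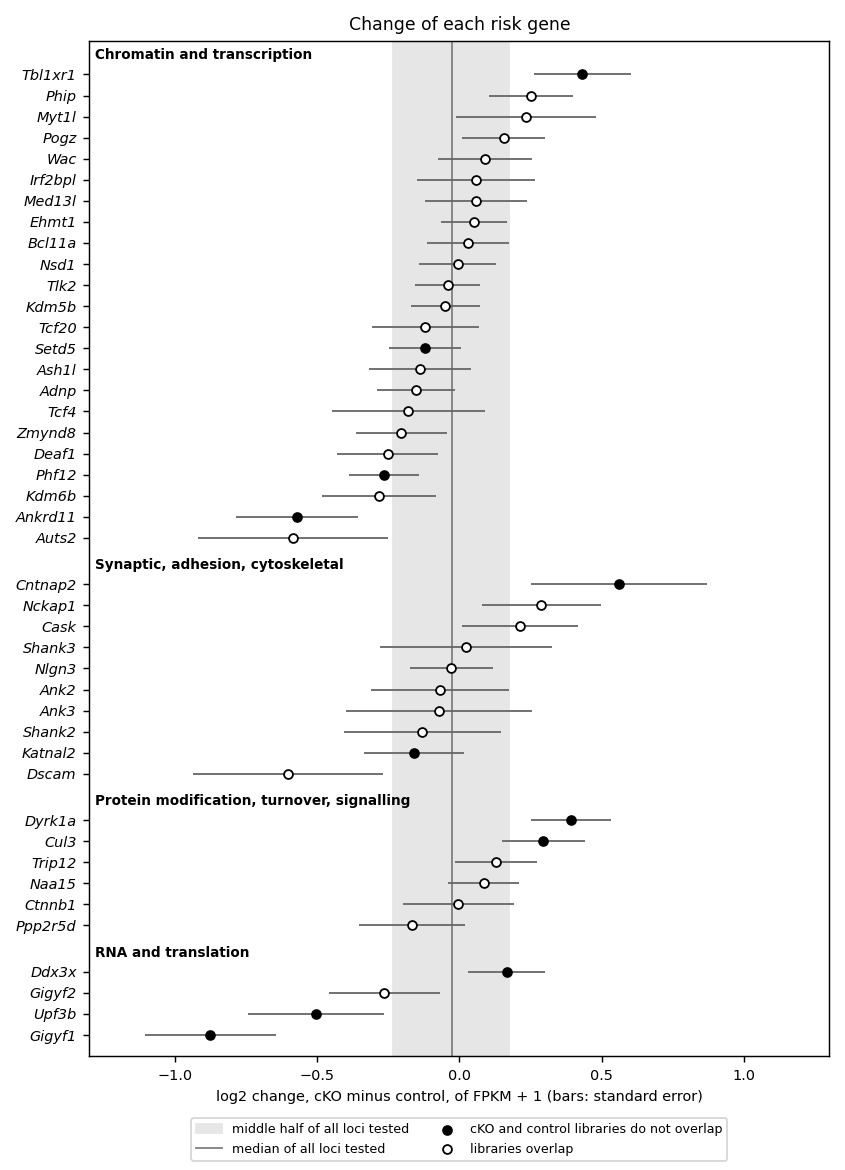
log2 change of each risk gene (points, with the standard error of the limma fit as bars), ordered within its role, with the grey band spanning the interquartile range and the line the median of all 12672 loci tested. Filled points mark the 11 genes whose libraries did not overlap, and Gigyf1 lay farthest from 0, at -0.88.

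Promoter sequence is shown for 4 chromatin and signalling genes that lay apart in opposite directions, as the place where CHD8 is known to act. Windows from the RefSeq table of GRCm38.p6 were found for 31 of the 43 members, and for 18 of them the window lay within 500 bases of the annotated start of the gene. That of Gigyf1 did not meet this condition and is not shown. The lines give the 250 bases before the start that the promoter table uses, 5′ to 3′ on the strand of the gene, with GC boxes (GGGCGG or its complement CCGCCC) in capitals. That start was the annotated 5′ end of the gene for Ankrd11, and lay 83 bases inside the gene for Phf12, 259 for Dyrk1a and 399 for Tbl1xr1, so the windows of Dyrk1a and Tbl1xr1 lie wholly within the annotated gene. Ankrd11 and Phf12 were lower in both cKO libraries, and Dyrk1a and Tbl1xr1 higher.
Ankrd11 (chr8:123042285-123042534, minus strand): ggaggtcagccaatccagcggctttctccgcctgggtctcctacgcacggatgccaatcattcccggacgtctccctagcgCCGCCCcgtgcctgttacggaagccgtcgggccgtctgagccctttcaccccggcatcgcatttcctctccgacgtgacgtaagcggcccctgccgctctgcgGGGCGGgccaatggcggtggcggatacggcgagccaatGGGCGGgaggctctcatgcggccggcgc
Phf12 (chr11:77982566-77982815, plus strand): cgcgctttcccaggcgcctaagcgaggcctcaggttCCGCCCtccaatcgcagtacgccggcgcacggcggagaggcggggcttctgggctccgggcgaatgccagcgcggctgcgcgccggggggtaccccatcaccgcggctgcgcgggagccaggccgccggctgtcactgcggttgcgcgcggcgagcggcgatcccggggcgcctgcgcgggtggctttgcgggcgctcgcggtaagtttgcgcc
Dyrk1a (chr16:94569956-94570205, plus strand): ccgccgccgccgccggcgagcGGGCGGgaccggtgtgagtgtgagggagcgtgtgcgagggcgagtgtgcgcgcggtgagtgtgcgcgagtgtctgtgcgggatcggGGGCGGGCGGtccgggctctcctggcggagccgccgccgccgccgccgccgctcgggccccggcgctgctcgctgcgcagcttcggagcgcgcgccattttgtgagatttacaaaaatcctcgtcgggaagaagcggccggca
Tbl1xr1 (chr3:22076402-22076651, plus strand): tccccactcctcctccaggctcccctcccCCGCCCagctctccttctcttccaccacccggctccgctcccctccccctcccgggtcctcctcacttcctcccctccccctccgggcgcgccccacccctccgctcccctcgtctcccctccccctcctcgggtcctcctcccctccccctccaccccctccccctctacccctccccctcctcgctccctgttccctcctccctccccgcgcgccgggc

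Within 250 bases the 4 windows held 30 CpG dinucleotides in Ankrd11, 41 in Phf12, 43 in Dyrk1a and 15 in Tbl1xr1, and each held at least 1 GC box. Of the other members whose libraries lay apart, Cul3 had a suitable window with 23 CpG dinucleotides, Upf3b one with 16 and Cntnap2 one with 13. Over the 18 members the median was 21 CpG dinucleotides, with a range of 13 to 51, against a median of 10 over 15137 protein-coding genes whose window met the same condition. A GC box on either strand was present in 16 of the 18 members (88.9%) and in 42.6% of those protein-coding genes. Those genes were taken whether or not they were expressed in these libraries, while every member was tested and most were abundant. The sets are therefore unlike in level, and the part of level in these differences was not tested. The 18 were those with a suitable window, and the other 25 members are not described by these counts.

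Among the synaptic, adhesion and cytoskeletal genes, 4 had a positive and 6 a negative change, and the median was -0.05, equal to 2 decimals to that of the chromatin class. This median also turned, being -0.21 when cKO replicate 1 was left out, 0.18 when cKO replicate 2 was and 0.15 when control replicate 1 was, and 0.0015 by upper quartile scaling. Over all loci the median was -0.049, -0.0016 and -0.014 with those libraries left out, and 0.020 by that scaling. Dscam, on chromosome 16 (96587452 to 97171113), encodes an adhesion molecule of the immunoglobulin family that guides neurite spacing. It was 10.3 and 6.75 FPKM in the cKO libraries, against 20.1, 10.1 and 11.3 FPKM in the controls. Control replicate 1 stood apart from the other controls, and cKO replicate 1 lay just above control replicate 2. The log2 change of -0.60 (SE 0.33, adjusted p = 0.575) was -0.32 without control replicate 1, the control labelled c/+. The authors' deposited table called Dscam lower, with a log2 fold change of -0.69 and a q-value of 0.0215.

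Cntnap2, on chromosome 6 (45060061 to 47301393), encodes a neurexin-like adhesion protein of axons and was the member with the highest positive change. It was 37.4 and 32.1 FPKM in the cKO libraries, against 28.8, 15.05 and 28.5 FPKM in the controls. Both cKO libraries exceeded every control, of which control replicate 2 was far below the others. The log2 change was 0.56 (SE 0.31, adjusted p = 0.575), and 0.27 without control replicate 2. In the authors' deposited table its q-value was 0.0756.

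Nckap1, a subunit of the WAVE complex that drives branched actin, was 68.2 and 103 FPKM in the cKO, against 64.7, 67.02 and 74.3 FPKM in the controls. Only cKO replicate 2 exceeded the controls, and without it the log2 change was -0.01. Katnal2, related to the microtubule-severing enzyme katanin, was the least abundant member, at 1.67 and 1.71 FPKM in the cKO, against 1.92, 1.91 and 2.20 FPKM in the controls. The groups did not overlap, with a gap of well under 1 FPKM.

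For Shank2, Shank3, Ank2 and Ank3, scaffolds of the synapse and of the axon initial segment, the groups overlapped and the same library was highest in each group. Shank2, a scaffold of the postsynaptic density, was 12.03 and 6.83 FPKM in the cKO, against 12.7, 8.67 and 9.19 FPKM in the controls. Shank3, the scaffold gene of Phelan-McDermid syndrome, was 8.79 and 5.44 FPKM in the cKO, against 9.29, 4.89 and 6.88 FPKM in the controls. In both, cKO replicate 1 and control replicate 1 were the high libraries. Ank2, an ankyrin that ties membrane proteins to spectrin, was 55.3 and 41.1 FPKM in the cKO, against 64.6, 40.99 and 47.3 FPKM in the controls. Ank3, which organises the axon initial segment, was 38.1 and 25.1 FPKM in the cKO, against 47.1, 24.1 and 30.3 FPKM in the controls. The same libraries were high again. The ratio of Ank2 to Ank3 overlapped between groups, at 1.45 and 1.64 in the cKO, against 1.37, 1.70 and 1.56 in the controls. Cask, a membrane-associated kinase scaffold, and Nlgn3, a postsynaptic neuroligin, both overlapped between groups (log2 changes 0.21 and -0.03).

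**Figure D4:**
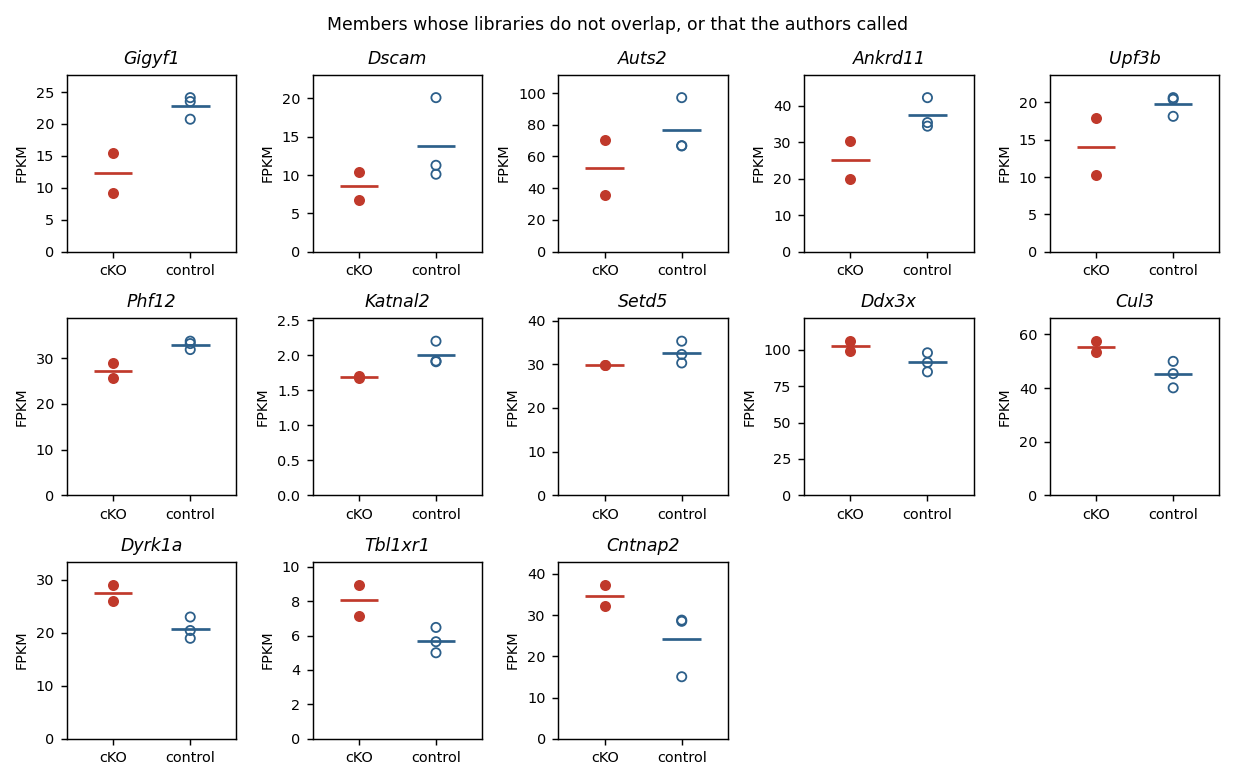
FPKM from 0 of the 11 risk genes whose cKO and control libraries did not overlap and of Dscam and Auts2, which the authors called lower, with filled points for the 2 cKO libraries, open points for the 3 controls and lines at the group means. Panels are ordered by log2 change, from Gigyf1 at -0.88 to Cntnap2 at 0.56.

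Synaptic genes varied more among the controls than chromatin genes did. The coefficient of variation over the 3 controls had a median of 23.6% for the synaptic class, against 9.81% for the chromatin class and 15.4% for all loci. In 8 of the 10 synaptic genes control replicate 1 was the highest control, and in 9 of the 10 control replicate 2 was the lowest. The mean log2(FPKM + 1) of the synaptic class was 4.36 and 4.09 in the cKO libraries, against 4.51, 3.96 and 4.20 in controls 1 to 3. The chromatin class spanned less, at 5.16 and 4.92 in the cKO, against 5.18, 5.11 and 5.05 in the controls. The chromatin mean minus the synaptic mean was 0.80 and 0.83 in the cKO libraries, which lay inside the controls' 0.67, 1.151 and 0.85. The difference between the groups in this measure was -0.07, smaller than its SD of 0.24 among the controls. Its direction turned with the controls used, at -0.18 when control replicate 1 was left out and 0.058 when control replicate 2 was.

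Markers of neurons ordered the libraries the same way as the synaptic class. The 12 neuron markers, all detected, summed to 3166 and 2313 FPKM in the cKO libraries, against 3303, 2312 and 2784 FPKM in the controls. Of these markers 5 had a positive and 7 a negative change. Their part in the level of the synaptic genes was not tested. The 6 markers of intermediate progenitors all with a negative change, summed to 257 and 195 FPKM in the cKO, against 273, 607 and 383 FPKM in the controls, and the 10 of radial glia, 4 positive and 6 negative, to 1429 and 1511 FPKM, against 1376, 1913 and 1584 FPKM. The 12 markers of microglia, all with a positive change, summed to 111 and 105 FPKM in the cKO, against 34.8, 52.2 and 41.97 FPKM in the controls, and the 10 of the ventral telencephalon, likewise all positive, to 520.3 and 546 FPKM, against 298, 269 and 401 FPKM. Markers of meninges, 7 in number, summed to 7.75 and 5.55 FPKM in the cKO, against 4.29, 26.1 and 5.63 FPKM in the controls, so control replicate 2, the lowest control in most synaptic genes and in Cntnap2, stood apart in them. The 10 markers of endothelium and pericytes summed to 98.2 and 107 FPKM in the cKO, against 91.03, 97.2 and 82.4 FPKM in the controls. Of 6 erythroid markers 5 were found, at 4 loci, which summed to 337 and 263 FPKM in the cKO, against 406, 290.4 and 423 FPKM in the controls. None of the markers found was at 0 in all libraries, and their part in the members' values was not tested.

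**Figure D5:**
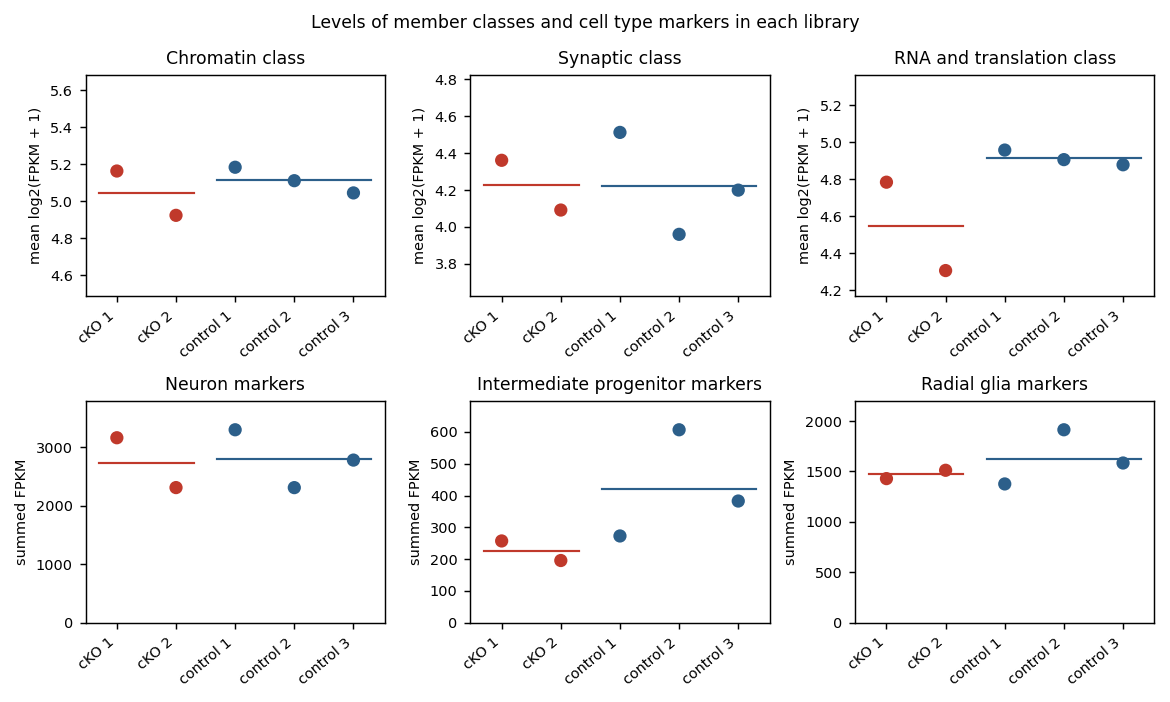
Upper panels give the mean log2(FPKM + 1) of the chromatin, synaptic and RNA and translation classes in each library, on axes of equal span, and lower panels the summed FPKM of marker genes, with cKO libraries left, controls right and lines at the group means. The synaptic class and the neuron markers were both highest in control replicate 1, at 4.51 and 3303, while cKO replicate 2 was lowest in the RNA and translation class, at 4.31.

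Among the genes of protein modification, turnover and signalling, 4 had a positive and 2 a negative change, with a median of 0.11. Dyrk1a, a kinase whose dosage affects brain size, was 26.01 and 29.1 FPKM in the cKO libraries, against 22.97, 20.4 and 18.96 FPKM in the controls. Both cKO libraries exceeded every control, with a log2 change of 0.39 (SE 0.14, unadjusted p = 0.0340 and adjusted p = 0.575 in limma). Cul3, the scaffold of a family of ubiquitin ligases, was 53.4 and 57.5 FPKM in the cKO, against 49.97, 40.1 and 45.4 FPKM in the controls. It also lay apart (log2 change 0.30, SE 0.15, adjusted p = 0.575). With each library left out in turn the change was 0.31 to 0.47 for Dyrk1a and 0.21 to 0.37 for Cul3. Its positive sign there follows from the libraries lying apart.

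Ctnnb1, which encodes beta-catenin of adherens junctions and Wnt signalling, was the most abundant member, at 421 and 494 FPKM in the cKO, against 403, 527 and 449.6 FPKM in the controls. The groups overlapped fully, and the cKO mean was 99.5% of the control mean. Trip12, a ubiquitin ligase, Naa15, the ribosome-anchoring subunit of an N-terminal acetyltransferase, and Ppp2r5d, a regulatory subunit of a serine/threonine phosphatase, overlapped as well, with log2 changes of 0.13, 0.09 and -0.17.

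Partners of the members in their complexes, taken from a fixed list, gave a median of 0.03 over 74 tested genes, with 40 above and 34 below 0. None passed over all loci, and 9 had an unadjusted p under 0.05 in limma, where 7.45% of all loci did. The authors' deposited table called 2 partners higher and 6 lower, where it called 1.22% of all loci higher and 3.09% lower. The libraries lay apart upward in 14 partners and downward in 13, or 36.5% in all, where 29.0% of all loci lay apart (13.4% upward and 15.6% downward). Eif4e2, the cap-binding partner of Gigyf1 and Gigyf2, was 38.4 ± 1.76 FPKM in the cKO (SD, n = 2), against 38.3 ± 3.28 in the controls (SD, n = 3). Naa50, which joins Naa15 in its complex, was 26.9 ± 5.66 FPKM in the cKO, against 17.8 ± 1.69 in the controls, with a log2 change of 0.56. Of the kinase module of Mediator, to which Med13l belongs, Cdk19 was 21.5 ± 0.669 FPKM in the cKO, against 16.1 ± 1.67 in the controls. Ppp2cb, a catalytic subunit that pairs with Ppp2r5d, was 98.6 ± 15.8 FPKM in the cKO, against 70.4 ± 6.32 in the controls. The fourth of the partners with the smallest p was Chd4, which binds Adnp, at 93.02 and 58.97 FPKM in the cKO, against 118, 131 and 117 FPKM in the controls (log2 change -0.71). All 4 had an adjusted p of 0.575 in limma.

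Paralogs of the members had a median of -0.04 over 31 tested genes, with 14 above and 17 below 0, and the median was 0.0018 by upper quartile scaling. That scaling gave a median of 0.020 over all loci. The authors' deposited table called 2 paralogs lower and 0 higher, where it called 3.09% of all loci lower and 1.22% higher. None passed over all loci in limma (lowest adjusted p 0.575), and 3 had an unadjusted p under 0.05, where 7.45% of all loci did. The libraries lay apart upward in 5 paralogs and downward in 3, or 25.8% in all. Of all loci 29.0% lay apart, 13.4% upward and 15.6% downward. Myt1, the paralog of Myt1l, was 18.6 ± 4.62 FPKM in the cKO, against 27.1 ± 1.90 in the controls, and Rai1, the paralog of Tcf20 and the gene of Smith-Magenis syndrome, was 20.3 ± 6.02 FPKM, against 31.2 ± 4.34 FPKM. Both lay below the controls in both cKO libraries, while Myt1l and Tcf20 overlapped. Cntnap4, the paralog of Cntnap2, was 8.31 ± 0.526 FPKM in the cKO, against 5.61 ± 1.203 in the controls, so both genes of this pair were above every control. Upf3a, the paralog of Upf3b, was 27.2 and 10.3 FPKM in the cKO, against 26.9, 35.1 and 32.9 FPKM in the controls, and cKO replicate 2 was again the lowest library.

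Other risk genes outside the 43 had a median of -0.01 over 49 tested genes, with 24 above and 25 below 0, and the median was 0.017 by median of ratios and 0.039 by upper quartile scaling. Those scalings gave medians of -0.00025 and 0.020 over all loci. By role, 16 of 21 chromatin and transcription genes had a negative change (median -0.12) and 15 of 20 genes of synapse and excitability a positive one (median 0.16), where 53.1% of all loci were below 0. Among the 43 members, 14 of 23 chromatin and transcription genes and 6 of 10 synaptic genes had a negative change. Among those with the smallest p, Reln, which encodes a secreted protein that guides neuronal layering, was 54.905 and 54.997 FPKM in the cKO, against 28.9, 27.00 and 24.8 FPKM in the controls (log2 change 1.01, SE 0.13, adjusted p = 0.339 in limma). The postsynaptic scaffold gene Dlgap1 was 13.98 and 8.80 FPKM in the cKO, against 8.04, 4.62 and 7.17 FPKM in the controls (log2 change 0.70, SE 0.29, adjusted p = 0.575). In both genes the cKO libraries exceeded every control, and neither passed over all loci in limma. Over the 49 tested genes the libraries lay apart upward in 10 and downward in 4, or 28.6% in all. The share over all loci was 29.0%, with 13.4% upward and 15.6% downward. Libraries lay apart upward in 4 and downward in 0 of the 20 synapse and excitability genes. An unadjusted p under 0.05 in limma was found for 1 of the 49, where 7.45% of all loci had one. The authors' deposited table called 4 of the 20 synapse and excitability genes higher and 0 lower, and 1 of the 21 chromatin and transcription genes lower and 0 higher. Of all loci it called 1.22% higher and 3.09% lower.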

How the data were processed

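RNA from E14.5 cortex was measured in 2 cKO and 3 control libraries; ATAC-seq samples of the series, 6 in number, were not analysed here. Per the labels' protocols, total RNA was extracted with Trizol and a column kit before Illumina library preparation. CASAVA, TopHat, Cufflinks, Bowtie2 and MACS are named with build mm10 in the submitters' processing notes, without version or role. The deposited values are read as FPKM per locus and library from the layout of the table, whose header does not name the unit. The authors also deposited the mean FPKM of each group with their log2 fold change, test score, p-value and q-value, per the file headers. Depth is unknown without counts.

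A locus was tested where its mean reached 1 FPKM, as log2(FPKM + 1), which understates changes of low genes. The test was limma (version 3.58.1, under R 4.3.3) using an intensity trend, with Benjamini-Hochberg adjustment over all loci and 3 residual degrees of freedom. It was also run on simulated data with independent noise and no shifts shared across a library. The outcome is not given here, and no value above rests on it. The 43 members, their roles and the other lists were chosen with earlier results of these data known, so no list was tested and no limma p was adjusted over a list; the permutation p-values of the 3 pair ratios were adjusted over those pairs. Library values are given for members that do not overlap between groups, have one of the 12 smallest p, were called by the authors, are the highest or lowest of their role, or belong to the pairs Gigyf1 and Gigyf2, Shank2 and Shank3, Ank2 and Ank3, and Kdm5b and Kdm6b. Of each other list, up to 4 genes with the smallest p are named. The lists of partners, paralogs and other risk genes share some genes, so their counts are not separate. Upf3a is both a partner and a paralog, Dlgap1 a partner and another risk gene, and Kdm5c a paralog and another risk gene. Some genes that this rule names are not reported here. Eif4e2, Xist, Ddx3y and the library values of Nckap1 and Adnp were added after their values were seen. Alternatives were another pseudocount, other filters, no trend, 2 other scalings, a replicate block and leaving out each library. Gene spans and promoter windows were taken by symbol from RefSeq on GRCm38.p6, of which mm10 is another name.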

Additional observations from a re-analysis of the deposited data

How the results depend on the processing

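No member passed an adjusted p of 0.05 in limma under any alternative tried (lowest 0.315), and neither did Chd8. None of the 11 members whose libraries did not overlap reversed direction, an outcome that non-overlap fixes in advance except under another scaling. Loci called higher over the whole table, 2 in all, became 1 with a minimum mean of 5 FPKM and 1 with the replicate block, and the 4 called lower became 1 with no filter, 2 without the trend and 2 with the block. With 1 library left out, 2 to 29 loci were called higher and 2 to 12 lower, members not overlapping numbered 6 to 14 higher and 7 to 21 lower, and the median log2 change ran from -0.14 to 0.029 for the chromatin class, -0.21 to 0.18 for the synaptic class, -0.71 to -0.056 for RNA and translation, -0.065 to 0.085 for partners, -0.093 to 0.18 for other risk genes and -0.043 to 0.027 for paralogs. Upper quartile scaling gave medians of 0.00069 for the chromatin class and 0.080 for partners. The median over all loci, -0.02 in the main fit, was -0.00025 by median of ratios and 0.020 by upper quartile scaling. With 1 library left out it ran from -0.049 to -0.0016. In all, 35 of 515 recomputed values of single members reversed, in 18 members. By scaling these were Ctnnb1 (0.024 by median of ratios, 0.048 by upper quartile), Nsd1 (0.020 and 0.043), and by upper quartile alone Kdm5b (0.00069), Nlgn3 (0.021) and Tlk2 (0.0072). With the replicate block they were Irf2bpl (-0.017) and Med13l (-0.030). With 1 library left out, ranges crossed 0 for Ank2 (-0.28 to 0.14), Ank3 (-0.36 to 0.22), Ash1l (-0.29 to 0.013), Bcl11a (-0.10 to 0.16), Ctnnb1 (-0.12 to 0.11), Gigyf2 (-0.55 to 0.023), Irf2bpl (-0.15 to 0.27), Med13l (-0.14 to 0.26), Nckap1 (-0.0073 to 0.58), Nlgn3 (-0.079 to 0.069), Nsd1 (-0.057 to 0.069), Shank2 (-0.50 to 0.24), Shank3 (-0.28 to 0.32), Tcf20 (-0.38 to 0.15), Tcf4 (-0.43 to 0.069) and Wac (-0.021 to 0.20); the cause was not tested. Only 2 replicate numbers are shared, and the labels give them no meaning, so the main fit did not pair libraries by number. Same-numbered libraries did not deviate together across loci (correlations of -0.067 and -0.11). With 2 cKO libraries, whose deviations mirror each other, this check cannot decide whether the numbers mark pairs. With the block, Chd8 had -0.81, the chromatin median was -0.08 and 0 members were called. Without counts, no limit of detection can be given for any gene.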
